A study of Mus musculus with 8 samples.

Results

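ERVK internal sequences other than those of the intracisternal A particle (IAP) were described in total RNA of mouse embryonic stem cells. An internal sequence is the part of an endogenous retrovirus between its long terminal repeats (LTRs), and the repeat annotation marks it with the ending -int. Members were taken from the repeat rows of the deposited table by name: rows of the ERVK family, class LTR, ending in -int and not starting with IAP. Of 36 such rows, 35 had a mean count of at least 10 and form the list, out of 1097 repeat rows and 18694 rows in all. A mean count is the authors' average over all libraries of the reads per row after scaling by size factors.

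The cells come from a Cast x 129S cross and carry METTL3, the enzyme that writes N6-methyladenosine (m6A) on RNA, fused to the FKBP12 F36V degron, so that dTAG-13 removes the protein. The labels give 8 libraries in 2 groups of 4, one treated with dTAG-13 for 26 hours and one untreated. Each group holds clones C3 and H5, both tagged at the C terminus, with 2 libraries per clone. In both groups the Xist promoter of one allele is replaced by a doxycycline-inducible one, no doxycycline was given, and the cells grew on mitomycin-inactivated fibroblast feeders. Each mean count analysed here joins both groups and both clones, so no value belongs to one library or one treatment. Whether METTL3 removal changed these sequences is not analysed here, and no spread between libraries stands behind the values.

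ERVK elements are endogenous retroviruses of the beta-retrovirus kind, copied into the genome by reverse transcription of their RNA. A complete copy carries gag, pro and pol genes between its LTRs, and the LTRs start and end transcription. In embryonic stem cells the silencing of such copies is known to involve TRIM28, which KRAB zinc finger proteins bring to the DNA. SETDB1, which methylates histone H3 at lysine 9, acts with it. The rows count reads summed over all genomic copies of a subfamily. They do not tell transcripts that start in an element from other transcripts that span a copy, and this was not tested. No length of the copies was used, so the counts below are numbers of reads and do not rank subfamilies by RNA per base. The study's methods describe the read mapping as similar to that of its chromatin RNA libraries, where only uniquely placed reads were kept. Such a filter can undercount young subfamilies whose copies are nearly identical, and the size of that effect was not measured here.

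The cells showed the markers of their label. All 10 embryonic stem cell markers had a mean count of at least 100, beside 56.3% of all genes. They ran from 1019 for Utf1 to 11934 for Pou5f1, which encodes the pluripotency factor OCT4. Of the 12 fibroblast feeder markers, 8 had a mean count of at least 10, beside 77.2% of all genes. At the minimum of 100 used for the stem cell markers it was 5 of the 12, beside 56.3% of all genes. The whole list ran from 0.77 for Postn to 4941 for Fn1. The markers with at least 100 were Fn1, Sparc (3052), Vim (2073), Thy1 (116) and Acta2 (103). The others were Col1a1 (19.8), Col1a2 (13.8), Pdgfrb (10.8), Col3a1 (8.38), Dcn (7.50), Lum (1.45) and Postn. The part of feeder RNA in the members' reads was not tested. Mettl3 had a mean count of 684, which says nothing of its protein.

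As a set, the members held many reads relative to their number, and most of these lay in 2 rows described below. Their mean counts summed to 133252 of 1719306 in all repeat rows, or 7.75% of repeat reads in 3.19% of the rows. The other rows of this total did not have to pass the minimum of 10, which 896 of the 1097 repeat rows reached. With the minimum applied to all rows, the members' share of rows would be larger. They held 0.818% of all reads, genes included. The repeat rows include some that are no transposons. Of the repeat rows, 67 are of other or uncertain class than DNA, LINE, LTR and SINE, so some of them may still be transposons. These 67 held 22.3% of repeat reads, of which 7SK, a row of class RNA, alone had 274706. Over the other 1030 rows the members' part was 9.97%. Within the ERVK family it was 63.0%, and within the LTR class 33.1% of the reads in 5.42% of the rows. Of the 646 LTR rows, 521 reached the minimum of 10, so here too the share of rows is set low by the rule.

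Most of these reads came from rows named for early transposons (ETn). MMETn-int had a mean count of 70915, the most of any LTR row, the third among repeat rows and the 6th among all rows. It is the internal part of ETn, an element named for its transcription in early embryos, which lacks the retroviral genes and moves with proteins supplied by its relative MusD. ETnERV-int followed with 27763, the third among LTR rows. Both together gave 74.1% of the members' reads.

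ETnERV2-int (1753) and ETnERV3-int (1054.5) complete the ETn group, whose 4 members summed to 101485, or 76.2% of the members' reads. The group was made by the start of the name. Whether its ETnERV rows lack the retroviral genes, as ETn does, was not examined. MMETn-int had 2.55 times the reads of ETnERV-int, which in turn had 3.77 times those of the next member. The remaining 31 members summed to 31767, which is 1.85% of repeat reads in 31 of the 1097 repeat rows. The high share of the whole list thus came from the ETn group. The only ERVK LTR row named for ETn, RLTRETN_Mm, was looked up after the values were seen and had a mean count of 2790.

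**Figure D1:**
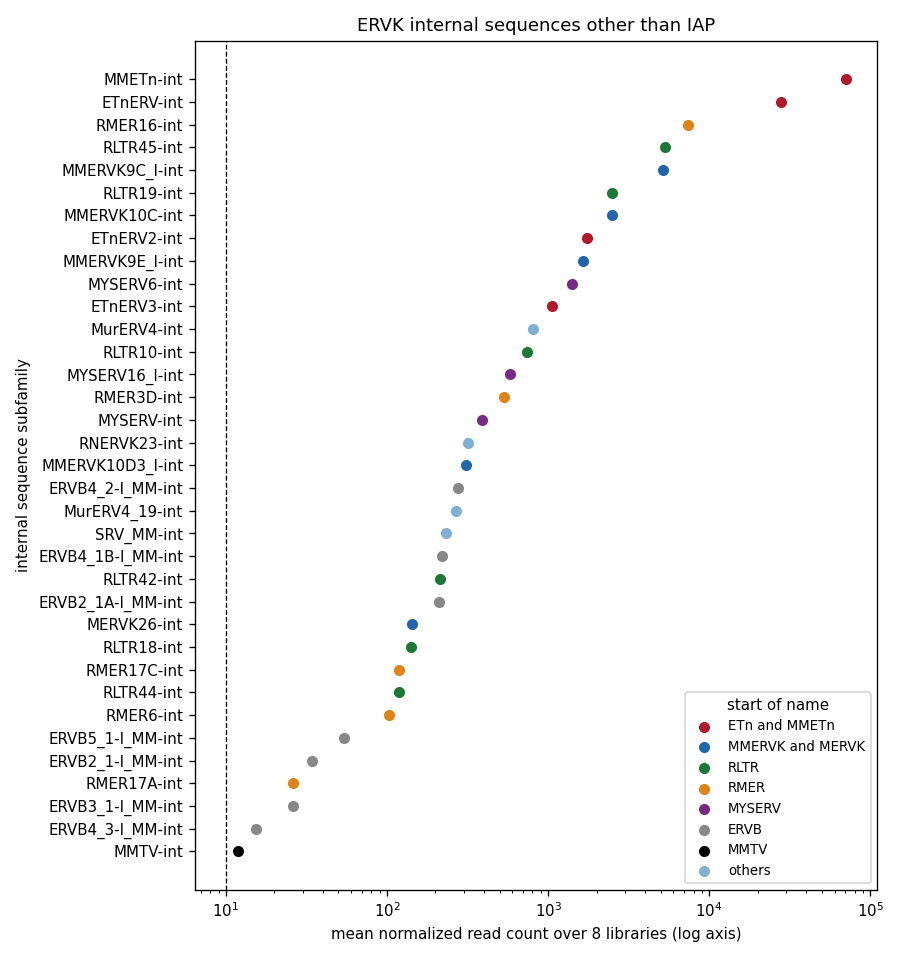
Mean normalized read count of each of the 35 members (horizontal log axis, averaged by the authors over 8 libraries), 1 row per subfamily and coloured by the start of its name; the dashed line marks the minimum of 10. MMETn-int (70915) and ETnERV-int (27763) lie apart on the right, and MMTV-int (11.8) is nearest to the line.

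RMER16-int was the third member with 7362 reads, 5.53% of the members' total, and held most reads of the RMER names, which summed to 8143. The other RMER members were far lower: RMER3D-int had 532, RMER17C-int 118, RMER6-int 104 and RMER17A-int 26.2. Copy number and length were not available, so their order may differ from one by RNA per base.

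The MMERVK and MERVK names, murine ERVK elements that include the TRIM28-controlled MMERVK10C, summed to 9719 over 5 members, 7.29% of the members' reads. MMERVK9C_I-int led with a mean count of 5140.5, followed by MMERVK10C-int with 2488 and MMERVK9E_I-int with 1636. MMERVK10D3_I-int (311) and MERVK26-int (144) were lower. The lead of MMERVK9C_I-int over MMERVK10C-int is one of reads and was not set per length or per copy.

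The 6 RLTR members summed to 9045, or 6.79% of the members' reads, and ranged from 118 to 5327. RLTR45-int (5327) and RLTR19-int (2506) held most of them. RLTR10-int had 741, RLTR42-int 212, RLTR18-int 141 and RLTR44-int 118. As with the ETn and RMER names, a few members carried the group.

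The 3 MYSERV members lay closer together, with 1412 for MYSERV6-int, 584 for MYSERV16_I-int and 387 for MYSERV-int. The members outside the fixed name groups were MurERV4-int (808), RNERVK23-int (317), MurERV4_19-int (269.5) and SRV_MM-int (233). These 4 gave 1.22% of the members' reads.

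The ERVB names were the most numerous and among the lowest. Their 7 members summed to 838, which is 0.629% of the members' reads, with a median of 54.3. ERVB4_2-I_MM-int had 275, ERVB4_1B-I_MM-int 221 and ERVB2_1A-I_MM-int 211, while ERVB5_1-I_MM-int (54.3), ERVB2_1-I_MM-int (34.4), ERVB3_1-I_MM-int (26.2) and ERVB4_3-I_MM-int (15.4) were under 100. MMTV-int, the internal part of endogenous mouse mammary tumour virus, had the lowest mean count of the list, 11.8. The members just inside the minimum of 10 were thus ERVB3_1-I_MM-int, ERVB4_3-I_MM-int and MMTV-int, and the single row outside it was ERVB4_1-I_MM-int with 9.26.

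From lowest to highest member the mean count spanned 5987-fold. 11 members had at least 1000 reads, 18 had between 100 and 1000, and 6 had fewer than 100. The 5 members with most reads gave 87.4% of the total and the first 10 gave 94.8%, which left 5.22% to the other 25.

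**Figure D2:**
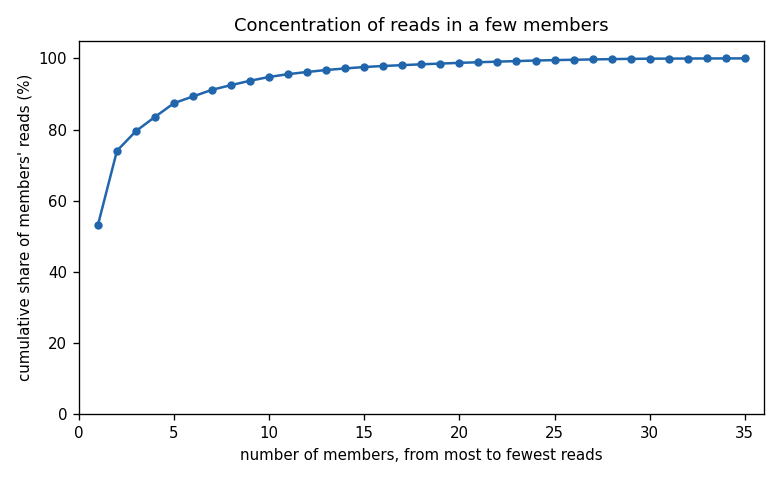
Cumulative share of the members' summed mean count (vertical axis, percent) against the number of members added from most to fewest reads. The curve starts at 53.2% with MMETn-int, reaches 74.1% with ETnERV-int and 94.8% with the 10th member.

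Set beside other LTR elements with the same minimum of 10, the members had a median mean count of 311, against 244 for 8 IAP internal sequences, 113 for 197 ERVK LTR rows other than IAP, and 91.7 for 15 IAP LTR rows. The internal rows of other families had medians of 226 for ERV1 (18 rows), 111 for ERVL (11 rows) and 173 for ERVL-MaLR (36 rows). Over all 896 repeat rows with at least 10 reads the median was 118. Without the ETn group the members' median was 269.5. Among rows with at least 10 reads, at least 100 were seen in 82.9% of members, beside 54.2% of all repeat rows. That part was 75.0% for IAP, 72.2% for ERV1, 66.7% for ERVL-MaLR and 54.5% for ERVL internal rows. It was 54.8% for the ERVK LTR rows other than IAP and 40.0% for IAP LTR rows. Subfamilies are not replicates and no value per library was used, so these medians are a description with no test.

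The part of a class's reads in its leading row varied. It was 53.2% for MMETn-int among the members. It was higher for IAPEz-int among IAP internal rows (81.5%), RLTR1B-int among ERV1 internal rows (79.7%) and MERVL-int among ERVL internal rows (66.8%). It was lower for MTA_Mm-int among ERVL-MaLR internal rows (35.9%), IAPLTR1_Mm among IAP LTR rows (32.3%) and RLTR13G among the other ERVK LTR rows (15.6%). The members had 18.7 times the summed reads of the IAP internal rows (7128), so that 94.9% of ERVK internal reads lay outside IAP. How far read placement affects that ratio was not tested.

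**Figure D3:**
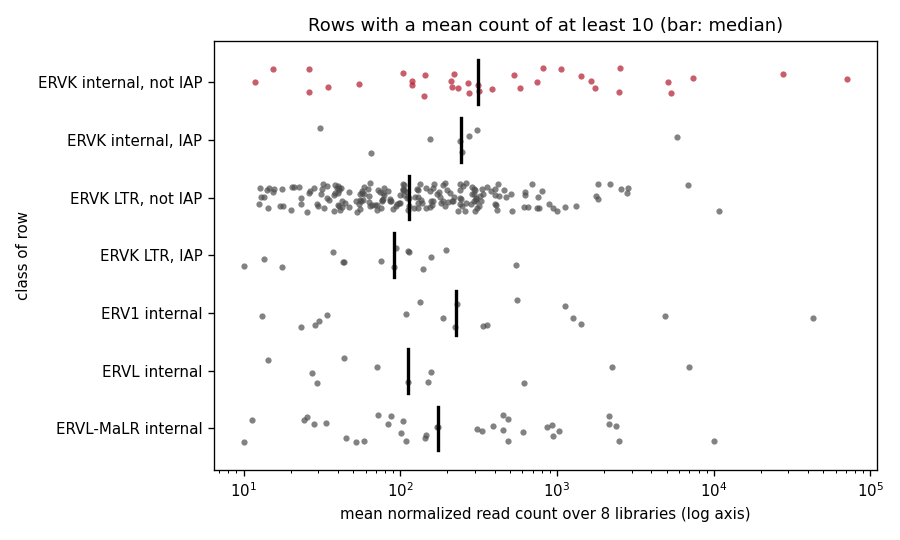
Mean normalized read count (horizontal log axis, averaged by the authors over 8 libraries) of every row with at least 10 reads in 7 classes of LTR element; each point is a subfamily, points are spread vertically only to separate them, and the bar is the class median. The members (red) have the median furthest to the right, 311, and the 2 highest points of the ERVK family.

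For 8 members an ERVK LTR row bears the same name, and the internal sequence had more reads than that LTR in 5 of them. For the same 8 members that number was 4 when all ERVK LTR rows whose names start with the same name were summed. This alternative was chosen after the values were seen. RMER16-int had 7362 reads against 34.0 for RMER16, a ratio of 217, which was 27.8 when the 8 ERVK LTR rows whose names start with RMER16 were summed (265). The ratio by exact name was 24.1 for RLTR19-int (LTR 104), 12.6 for RLTR45-int (LTR 424), 5.65 for RLTR42-int (LTR 37.6) and 2.27 for RLTR10-int (LTR 327). With summed rows it was 13.3 for RLTR19-int, and for RLTR10-int it turned to 0.794, since the 9 RLTR10 rows held 933 reads. Matching was by name only, and whether the summed LTR rows also flank other internal sequences was not examined. RLTR18-int and its LTR had similar numbers, 141 and 159, while both RLTR18 rows summed to 496, a ratio of 0.284.

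The LTR had more reads for the RMER17 names. RMER17A-int had 26.2 reads against 130.4 for RMER17A, and RMER17C-int had 118 against 798 for RMER17C, a ratio of 0.149. With summed rows both ratios were lower, 0.0890 for RMER17A-int and 0.117 for RMER17C-int. An LTR can outlive its internal part as a solo LTR, and it is shorter than a complete internal sequence, and neither was corrected for. The median ratio over the 8 pairs was 3.96 by exact name and 3.22 with summed rows. The other 27 members have no ERVK LTR row of exactly their name and entered neither count. Some of them, such as RMER6-int and RLTR44-int, do have LTR rows whose names start with theirs, and these were not summed.

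**Figure D4:**
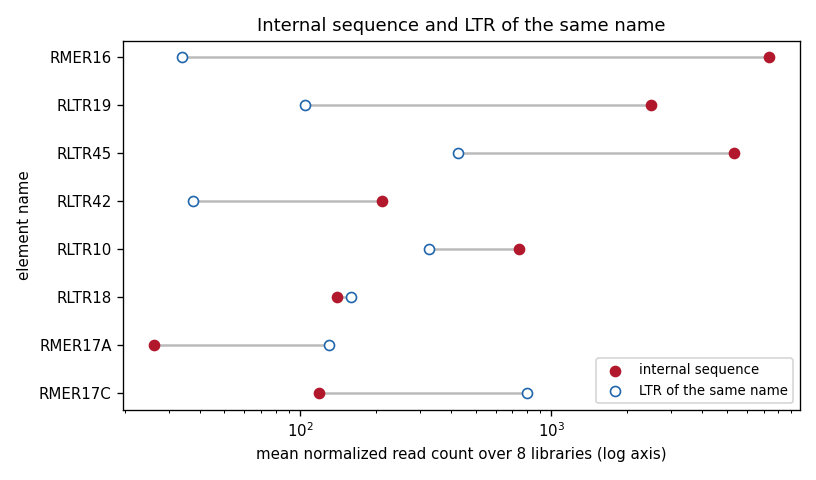
Mean normalized read count (horizontal log axis, averaged by the authors over 8 libraries) of the internal sequence (filled) and of the LTR with exactly the same name (open) for 8 elements, ordered by the ratio of both. The filled point lies to the right in 5 elements, by most for RMER16 (7362 and 34.0), and to the left for RLTR18, RMER17A and RMER17C. RLTR10 would move to the latter if all LTR rows starting with its name were summed (741 and 933).

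A list of 14 genes with known roles in silencing ERVK or other retroviral elements was read from the same table: Trim28, Setdb1, Atf7ip, Zfp809, Zfp708, Gm15446, Dnmt1, Dnmt3a, Dnmt3b, Uhrf1, Chd4, Smarcad1, Morc3 and Hells. All 14 had a mean count of at least 10 and 13 of at least 100, beside 77.2% and 56.3% of all 17597 genes. Trim28 had the most reads, 18853, and Gm15446, a KRAB zinc finger gene, the fewest, 73.6. Setdb1 had a mean count of 2665, and the maintenance DNA methyltransferase Dnmt1 one of 6392. These are read numbers without correction for transcript length, so they do not rank the genes by level.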

How the data were processed

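Total RNA was sequenced from 8 libraries, 4 treated with dTAG-13 and 4 untreated. Total RNA is what the methods and the molecule label give, whereas the labels' extraction protocol is one for chromatin RNA. The methods call the read mapping similar to that of the chromatin RNA libraries, for which the authors removed ribosomal reads with bowtie2 and kept pairs placed uniquely by STAR on the N-masked mm10 genome. The authors took out PCR duplicates with Picard, and ran TEtranscripts at its default parameters to count genes and repeat subfamilies. The signal column used here was deposited as the mean over all libraries of counts divided by size factors. It names no library, so depth and spread per library are unknown, and summed mean counts give 16292717 reads.

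The other 5 columns of the table hold the authors' own comparison of both groups (fold change, its standard error, statistic, p-value and adjusted p-value) and were not used. No model was fitted and no test was run. Sums, medians and shares were computed with Python 3.11.15 and pandas 2.3.3, and the script was tested on simulated data. The minimum mean count was 10. All members are named: the 10 with most reads, those next to the minimum, and the rest by the start of their name. Members and lists were chosen with earlier results of these data known. The other minimums, denominators and omissions tried are given in the closing section. Consensus sequences of the subfamilies were not used here.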

Additional observations from a re-analysis of the deposited data

How the results depend on the processing

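No paired analysis was possible because the values are means over all libraries and come from no test. For the same reason no library could be left out. The number of members was 36 with no minimum and 29 with a minimum of 100. The members' share of repeat reads, 7.75%, was 0.818% of all features, 63.0% of ERVK subfamilies, 3.63% without MMETn-int and, with a denominator chosen after seeing the data (classes DNA, LINE, LTR and SINE), 9.97%. The minimum could hardly move that share or the one of the first 5 members, since the rows under 100 hold few of the reads (7.751% and 87.43% with no minimum, 7.741% and 87.54% with a minimum of 100). The median of members was 293 with no minimum and 532 with a minimum of 100. The members' share of ERVK internal reads was 99.0% without IAPEz-int. The internal sequence had more reads than the LTR in 5 of 8 pairs by exact name and in 4 of 8 with all LTR rows of that name start summed, an alternative chosen after seeing the data, under which RLTR10-int turned.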
